A study of Mus musculus with 13 samples.

Results

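The 45 cell cycle genes examined here were taken from a list of gene names. They comprised 15 genes of DNA replication, 5 genes of G1 control and 25 genes of mitosis. Each was taken as the mean of all array probe sets annotated to that symbol alone, which gave values for 44 of the 45 genes from 107 probe sets, out of 18193 genes with a single symbol. The mitotic cyclin Ccnb1 had no such probe set and was not analysed here.

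RNA came from tissue cut by laser from the lumbar region of E13.5 mouse embryos and was hybridised to 13 arrays. Control embryos carried no Cre and 1 floxed allele of the type II TGF-β receptor (Cre-;Tgfbr2lox/wt), and gave 3 arrays of presumptive intervertebral disc (IVD) and 3 of vertebrae from the same mice. Tgfbr2 mutant embryos were Cre+;Tgfbr2lox/lox, which the labels of the vertebrae spell Tgrbr2lox.lox, and gave 4 arrays of IVD and 3 of vertebrae. The Cre was driven by the Col2a promoter, so that recombination was limited to cells in which that promoter had been active, and every group carried at least 1 floxed allele. Replicates are named biological in the study's design text. The series compared the tissues in control embryos and asked how each differed after deletion of Tgfbr2.

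The cell cycle is driven by cyclins and the cyclin-dependent kinases they activate. D-type and E-type cyclins help to release E2F factors in G1, Cdc6 and Cdt1 load the Mcm helicase on origins of replication, Pcna holds polymerases at the fork, and Cdk1 with cyclins A and B then starts mitosis, which the Aurora and Polo-like kinases, kinesins and the spindle checkpoint carry through. Transcripts of replication genes peak in S phase and those of mitotic genes in G2 and M phase, so that their amount in a tissue follows the share of its cells that are cycling. In bulk tissue fewer cycling cells and less RNA per cycling cell cannot be told apart.

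The deposited values were on a log2 scale and each probe set had been set to a median of 0 over the 13 arrays, so a value states how far an array lay from that median and gives no level of expression. The arrays were not alike in what else they held. Over 10 liver genes such as Alb the mean was 5.51 in control IVD 1, 5.68 in control vertebrae 1, 2.59 and 3.65 in the mutant IVD arrays 3 and 4, and from -0.35 to 0.25 in the other 9 arrays. Over 11 erythroid markers it was 3.24, 3.39, 1.47 and 1.74 in those same 4 arrays and from -0.79 to 0.25 in the others. Mutant IVD 3 also held 13 of 14 neuronal markers at over 1 on this scale. Its mean over 8 IVD and sclerotome markers was -1.56, against 0.62 to 1.89 in the other IVD arrays and -1.84 to -0.02 in the vertebrae. For these markers the array lay in the range of the vertebrae, and whether genotype or the tissue taken went with this was not tested. Control vertebrae 3 held 12 of the 14 neuronal markers at over 1, and control IVD 1 and mutant IVD 4 held 9 and 10 of 14 skeletal muscle markers there. Of the lists for cartilage (10 genes), endothelium (12), leukocytes (10), neural progenitors (9) and notochord (5) no array held more than 4 genes at over 1. Mutant vertebrae 1 had the widest spread over all genes (SD 0.65, against 0.28 to 0.51 in the others). Results are therefore also given without these arrays.

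Tgfbr2 itself read 0.24, 0.29 and -0.11 in control IVD and in the 4 mutant IVD arrays 0.48, 0.33, 0.15 and 0.06. The groups overlapped and the difference was 0.11 (SE 0.17). In vertebrae it read 0.03, -0.01 and -0.18 in control and -0.60, -0.23 and -0.04 in mutant. Where the probes lie relative to the deleted part was not analysed here, so these values do not check the genotype labels.

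The cell cycle genes varied more between replicate arrays than most genes did. Their median SD within groups was 0.47, against 0.29 over all genes, and their median range over the 13 arrays was 1.81, against 1.01. In some arrays nearly all of the 44 genes lay on 1 side of 0, with 43 above it in control IVD 2 and 42 below it in mutant vertebrae 1. Others were split, with 24 above and 19 below in mutant IVD 2 and 19 and 22 in control vertebrae 2. Correlation among the genes was not computed. The array with most of their highest values was control vertebrae 1, with 18 of 44, followed by control IVD 2 with 11 and control IVD 1 with 8, and the array with most of their lowest values was mutant vertebrae 1, with 32.

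The mean over the 15 DNA replication genes was 1.08, 0.55 and -0.09 in the control IVD arrays (mean 0.51 ± 0.59, SD, n = 3) and 1.10, -0.20 and -0.32 in control vertebrae (0.19 ± 0.79, n = 3). It was 0.48, 0.11, -0.15 and 0.12 in mutant IVD (0.14 ± 0.26, n = 4) and -0.91, -0.34 and -0.21 in mutant vertebrae (-0.49 ± 0.37, n = 3). Every mutant IVD array lay above every mutant vertebrae array, and all other pairs of groups but control IVD and mutant vertebrae overlapped. The mean over the 24 mitosis genes behaved alike, with 0.80, 0.77 and -0.08 in control IVD, 0.92, 0.07 and -0.13 in control vertebrae, 0.50, -0.04, -0.18 and -0.01 in mutant IVD and -0.96, -0.43 and -0.08 in mutant vertebrae. Here mutant IVD 3 lay below mutant vertebrae 3, and control IVD 3 and mutant vertebrae 3 were level to 2 decimals. The 5 G1 control genes had means of 0.43, 0.66 and -0.10 in control IVD, 0.30, -0.12 and -0.43 in control vertebrae, 0.39, 0.55, -0.69 and -0.03 in mutant IVD and -1.06, -0.12 and -0.18 in mutant vertebrae.

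**Figure D1:**
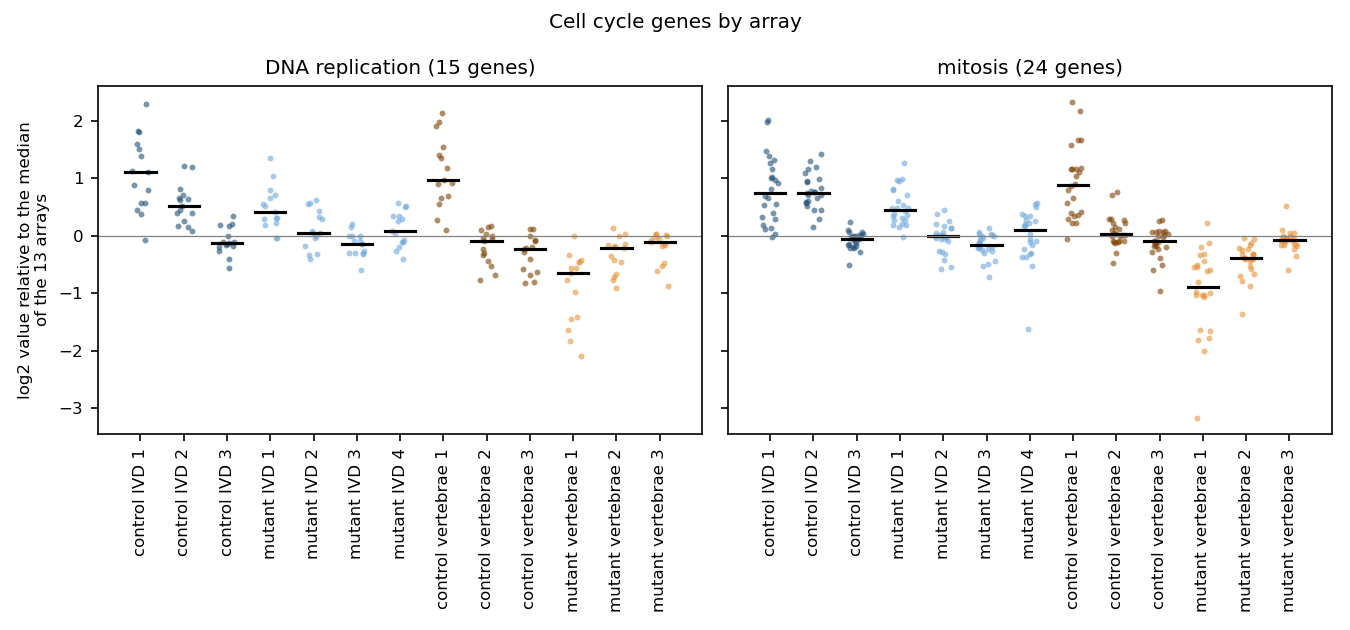
Each point is 1 gene in 1 array, as its log2 value relative to the median of the 13 arrays, for the 15 DNA replication genes (left) and the 24 measured mitosis genes (right). The black line is the median of the genes, and the colours mark the 4 groups. Control IVD 1, control IVD 2 and control vertebrae 1 lie highest and mutant vertebrae 1 lies lowest in both panels.

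Part of this order ran alongside the liver and erythroid markers. Control IVD 1 and control vertebrae 1, which had the highest values of both marker lists, had a mean over the 44 cell cycle genes of 0.85 and 0.91. Control IVD 2 had a mean of 0.68, with the liver and erythroid markers at -0.23 and -0.79, and mutant IVD 3 and 4 had means of -0.23 and 0.03, with the liver markers at 2.59 and 3.65. The part of liver and erythroid RNA in the cell cycle values was not tested.

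**Figure D2:**
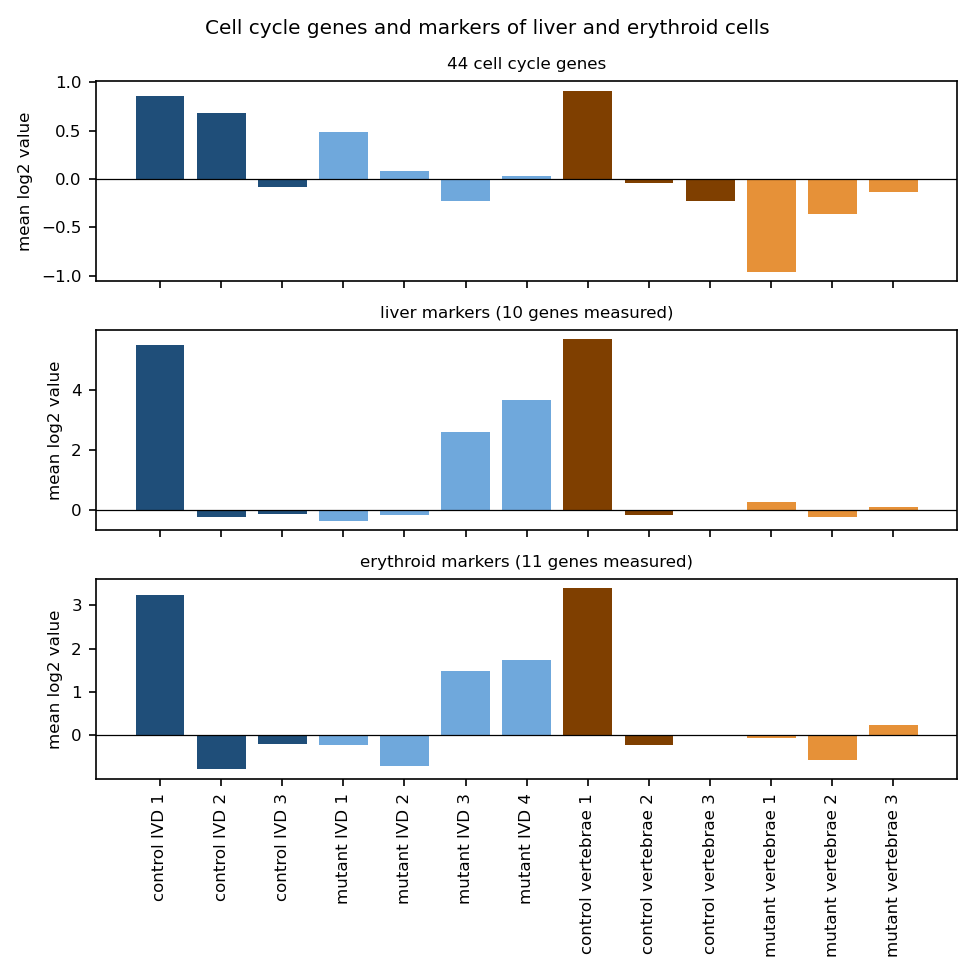
Bars show, for each of the 13 arrays, the mean log2 value relative to the median of the arrays over the 44 cell cycle genes (top), 10 liver markers (middle) and 11 erythroid markers (bottom). Each panel has its own vertical scale. The 2 arrays highest for the markers, control IVD 1 and control vertebrae 1, are also the highest for the cell cycle genes, whereas mutant IVD 3 and 4 are high for the markers and near 0 or below it for the cell cycle genes.

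The sequences before the start sites of the members are described next. RefSeq windows on GRCm38.p6, from 250 bases before to 50 bases after the start, were given for 33 of the 45 genes. They were searched on both strands for TTTGAA, the core of the cell cycle homology region (CHR), for CCAAT, the core of the NF-Y box, and for TTTCGCGC or TTTGGCGC, forms of the E2F site. The CHR letters were found in 14 of 19 mitosis genes and 1 of 12 replication genes (Mcm2), and in 20.2% of all genes with a window. CCAAT was found in 17 of 19 and 8 of 12, and in 41.1% of all genes, and the E2F letters in 1 of 19 (Cdk1) and 5 of 12 (Mcm3, Mcm5, Mcm6, Mcm7 and Cdt1), and in 0.929% of all genes. None of the 3 motifs was found for the G1 genes Ccne1 and E2f1. Other forms of the E2F site were not searched for, so a gene without these letters may still hold one.

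The 250 bases before the start are shown for 1 replication gene and 2 mitosis genes which together hold all 3 motifs, and of which Mcm5 and Kif11 had the smallest p of the members in mutant against control IVD. Capitals mark the motifs. Mcm5 (chr8:75109259-75109508, + strand) has E2F letters on both strands from -153, in 1 run of capitals because the matches overlap, and CCAAT at -77 and -22. Kif11 (chr19:37376132-37376381, + strand) has CCAAT at -45 and the CHR letters at -19, both on the opposite strand. Cdk1 (chr10:69352913-69353162, - strand) has E2F letters at -131, the CHR letters at -71 and -15, and CCAAT on the opposite strand at -208, -80 and -48. Positions are of the first base printed, counted back from the start.
Mcm5: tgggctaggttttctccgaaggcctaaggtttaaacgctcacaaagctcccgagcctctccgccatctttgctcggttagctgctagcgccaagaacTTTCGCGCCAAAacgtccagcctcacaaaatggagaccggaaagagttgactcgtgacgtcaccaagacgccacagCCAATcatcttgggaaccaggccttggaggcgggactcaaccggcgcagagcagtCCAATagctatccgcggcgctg
Kif11: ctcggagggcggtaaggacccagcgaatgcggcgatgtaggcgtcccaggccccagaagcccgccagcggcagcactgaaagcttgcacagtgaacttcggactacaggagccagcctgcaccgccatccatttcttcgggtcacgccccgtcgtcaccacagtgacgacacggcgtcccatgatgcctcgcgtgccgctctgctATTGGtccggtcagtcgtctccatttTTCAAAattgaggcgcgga
Cdk1: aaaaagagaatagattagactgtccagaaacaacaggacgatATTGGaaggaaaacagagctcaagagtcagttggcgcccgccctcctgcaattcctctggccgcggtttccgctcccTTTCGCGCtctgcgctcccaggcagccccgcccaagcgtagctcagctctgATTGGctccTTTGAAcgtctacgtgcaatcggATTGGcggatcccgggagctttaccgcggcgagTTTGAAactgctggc
A match describes the letters in these windows and is not a measured site. The median difference of mutant from control IVD was -0.52 for the 15 measured genes with the CHR letters and -0.33 for the 17 without. It was 0.23 in both sets for control IVD against vertebrae. With and without the letters it was -0.68 and -0.73 in mutant against control vertebrae. Between mutant IVD and vertebrae it was 0.44 and 0.58. Of the 15 genes with the letters 14 were mitosis genes, so this split is close to that by list.

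Whether deletion of Tgfbr2 went with other cell cycle transcript levels in the IVD is the first comparison. Means were lower in mutant than in control IVD for 38 of the 44 genes, with a median difference of -0.33, but no gene passed the test. Of all 18193 genes 41.8% were lower, with a median of 0.04. Of the members' 107 probe sets 78 were lower and 29 higher, and 16 of the 33 members with several had both signs. In limma's test 0 members had an adjusted p under 0.05, as did 0% of all genes, and each member's adjusted p was 0.9999. At an unadjusted p under 0.05 limma had 4 members lower and 0 higher, against 0.951% of all genes lower. The test with unequal variances had 0 members at that p, against 609 of all genes in either direction. In 1 member, Cenpf, every mutant IVD array lay below every control IVD array, as in 0.951% of all genes. Marker means in mutant IVD were higher for 14 of 14 neuronal markers (median 0.82) and 11 of 12 endothelial markers (median 0.31). They were lower for 7 of 10 liver genes (median -0.52), 7 of 11 erythroid markers (median -0.32) and 6 of 8 IVD and sclerotome markers (median -0.81). The part of these markers in the members' difference was not tested.

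Among replication genes the means were lower for 13 of 15, with a median of -0.31. Mcm5, a subunit of the replicative helicase, read 1.11, 0.66 and 0.20 in control IVD and 0.29, -0.32, -0.15 and 0.08 in mutant IVD. Only mutant IVD 1 reached into the control range, and the difference was -0.68 (SE 0.27, limma adjusted p = 0.9999). Its 3 probe sets differed by -1.07 to -0.30. Cdc6, a loader of the helicase, read 1.80, 1.21 and -0.01 in control IVD and 0.18, -0.00, -0.59 and -0.11 in mutant IVD, a difference of -1.13 (SE 0.61). Control IVD 3 lay within the mutant range, so the groups overlapped. Pcna, the sliding clamp of the polymerases, read 2.29, 0.82 and -0.19 in control and 0.71, -0.34, 0.00 and 0.33 in mutant, a difference of -0.80 (SE 0.63), and Mcm2 differed by -0.52 (SE 0.62). Mcm4 and Tyms, the latter a source of thymidylate, had slightly higher means in mutant IVD, by 0.05 and 0.02.

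Among the G1 control genes 2 of 5 had lower means. Ccne2, an E-type cyclin, had the lowest difference of all members, -1.48 (SE 0.85), from 1.27, 1.38 and 0.15 in control and 0.19, 0.98, -2.29 and -1.06 in mutant IVD. The low arrays were mutant IVD 3 and 4, both among those with liver transcripts, and control IVD 1, also among those, read 1.27. Cyclin D2 (Ccnd2) had the highest, 0.33 (SE 0.33), from 0.07, 0.48 and -0.34 in control and 0.72, 0.82, -0.29 and 0.34 in mutant. Cyclin D1 (Ccnd1) differed by 0.01 (SE 0.40) and E2f1, a transcription factor of the G1/S step, by 0.08 (SE 0.15), and all 3 overlapped between groups.

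Among mitosis genes 23 of 24 had lower means, with a median of -0.43. Kif11, the motor that pushes spindle poles apart, read 0.91, 0.99 and -0.01 in control IVD and 0.20, 0.05, -0.50 and -0.10 in mutant IVD, a difference of -0.72 (SE 0.31, limma adjusted p = 0.9999). Cenpf, a kinetochore protein, read 0.32, 0.51 and 0.06 in control and -0.03, -0.06, 0.02 and -0.10 in mutant, a difference of -0.34 (SE 0.15, limma adjusted p = 0.9999). Its groups did not overlap, but the gap between control IVD 3 and mutant IVD 3 was small beside the spread of the controls, and its 3 probe sets ranged from -0.72 to -0.03. Aurka, a kinase of the spindle poles, read 0.66, 0.66 and 0.02 in control and 0.18, -0.10, -0.10 and -0.33 in mutant, a difference of -0.53 (SE 0.24, limma adjusted p = 0.9999). The microtubule factor Tpx2 differed by -0.40 (SE 0.19), the Polo-like kinase Plk1 by -0.66 (SE 0.36), Cdk1 by -0.81 (SE 0.49), the proliferation antigen Mki67 by -0.62 (SE 0.49) and topoisomerase Top2a by -0.15 (SE 0.19). In all 5 the groups overlapped, and control IVD 3 lay within the mutant range or below it.

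**Figure D3:**
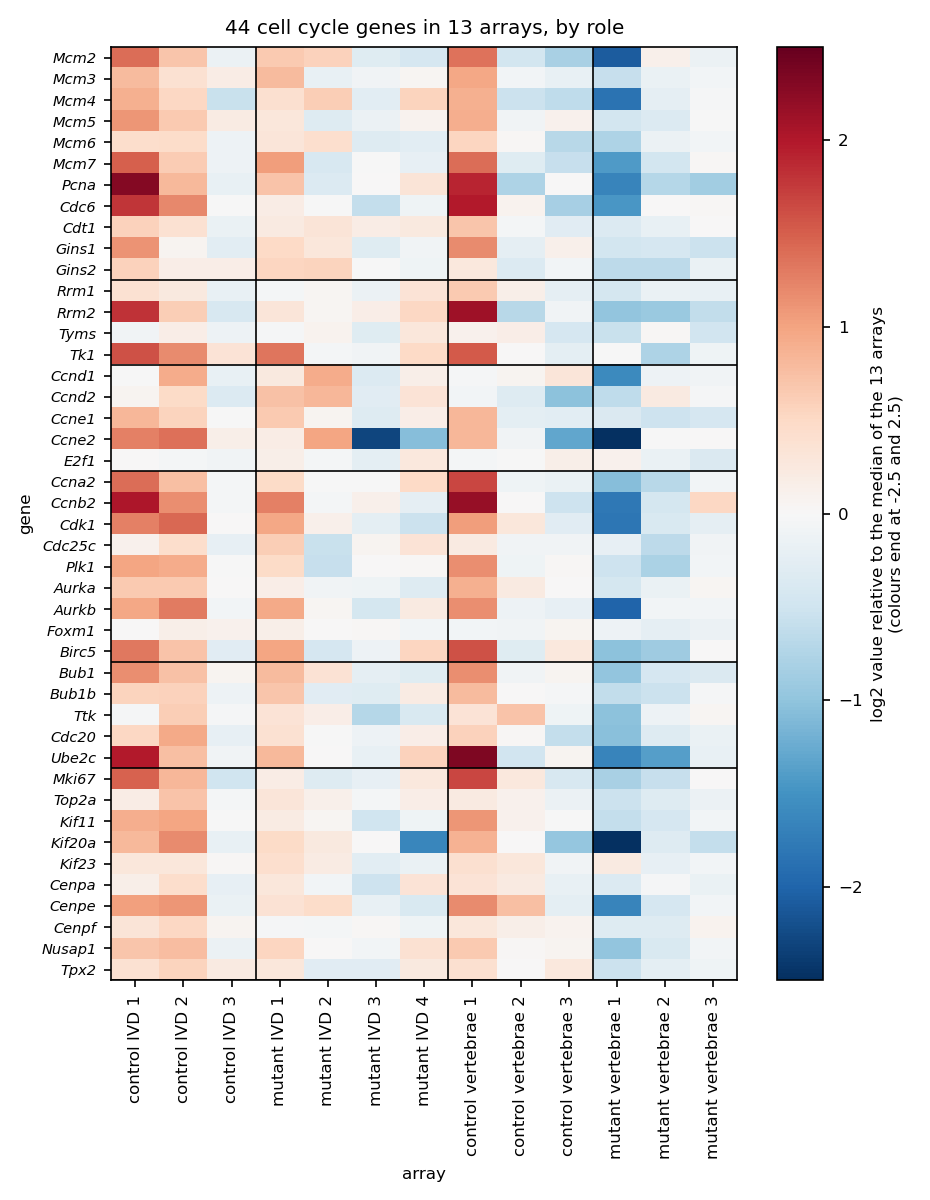
Rows are the 44 measured genes ordered by role, from helicase and fork genes at the top through nucleotide synthesis, G1 control, mitotic cyclins and kinases, and checkpoint genes to chromosome and spindle genes at the bottom, and columns are the 13 arrays by group. Colour gives the log2 value relative to the median of the arrays, and Ccne2 (-2.81) and Kif20a (-3.17) in mutant vertebrae 1 lie beyond the end of the scale. Columns differ as a whole within groups: control IVD 3 is pale beside control IVD 1 and 2, and control vertebrae 1 is dark red beside control vertebrae 2 and 3.

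The size of this difference rested on which arrays were used. Without both control arrays numbered 1 the median was -0.14 with 35 of 44 genes lower, and without control IVD 3 it was -0.59 with 42 lower. Without the 4 arrays with liver transcripts, which left 2 arrays in each IVD group, the median was -0.04 with 25 genes lower and 19 higher, and that of the replication genes was 0.06. Limma had 0 members at an unadjusted p under 0.05 without both control arrays numbered 1, and 0 without the 4 arrays. Over all genes it had 654 and 450 at that p, in either direction. At that p it had 9 members lower without control IVD 3, 6 with quantile normalisation and 11 with array weights, and over all genes 472, 747 and 1489 in either direction. Without mutant IVD 3, whose IVD and sclerotome markers lay in the range of the vertebrae, the median was -0.28. Without mutant IVD 1 it was -0.50 with 39 genes lower.

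Related genes that were not members also had mostly lower means in mutant IVD. Of the genes for origin recognition, helicase loading and polymerases 32 of 34 had lower means (median -0.20), of condensin, cohesin and kinetochore genes 24 of 26 (median -0.36), of spindle and cytokinesis genes 19 of 20 (median -0.32), of pocket proteins, E2F and MuvB genes 14 of 16 (median -0.28), of other CDKs, cyclins and phosphatases 12 of 13 (median -0.29) and of checkpoint and repair genes 12 of 14 (median -0.26). None passed the test after adjustment. The checkpoint kinase Chek1 differed by -0.54 (SE 0.21), the kinesin Kif4 by -0.67 (SE 0.28), the atypical E2F factor E2f8 by -0.51 (SE 0.22) and the cytokinesis regulator Racgap1 by -0.55 (SE 0.25), each at an unadjusted p under 0.05, which 0.951% of all genes had with a lower mean, and each with an adjusted p of 0.9999. The other genes with the smallest p of their lists, E2f5, Ccnf, Pkmyt1, Rfc3, Rpa2, Smc1a, Cenph and Brca1, differed by between -0.68 and -0.24 and were not under 0.05 before adjustment.

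Genes that restrain the cycle did not share one direction. Of the 7 CDK inhibitors 4 had lower means in mutant IVD and 3 had higher means. Cdkn1b (p27) differed by -0.55 (SE 0.36), Cdkn2d by -0.50 (SE 0.37), Cdkn1a (p21) by -0.33 (SE 0.26) and Cdkn2a by -0.03 (SE 0.19). Cdkn1c (p57) differed by 0.50 (SE 0.33), Cdkn2b by 0.09 (SE 0.33) and Cdkn2c by 0.08 (SE 0.27). Of 10 quiescence and antiproliferative genes 6 had lower means, with Gas1 at -0.56 (SE 0.42) and Txnip at 0.37 (SE 0.25).

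In control embryos the question was how IVD and vertebrae differ. Means were higher in IVD for 39 of the 44 cell cycle genes, with a median difference of 0.23, and 52.2% of all genes were lower, with a median of -0.01. Of the members' 107 probe sets 83 were higher and 24 lower, and 16 of the 33 members with several had both signs. Limma had 0 members with an adjusted p under 0.05, as it had 0% of all genes, and 0 members at an unadjusted p under 0.05, against 1.61% of all genes higher at that p. The unequal variance test also had 0 members, against 513 of all genes in either direction. In no member did the groups lie apart with IVD higher, against 4.24% of all genes.

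IVD and vertebrae of the control arrays came from the same mice, and arrays of the same number deviated together over all genes. Within those pairs the difference over all members was largest for 1 number. The median of IVD minus vertebrae was -0.08 for number 1 (16 genes higher, 28 lower), 0.77 for number 2 (41 higher, 3 lower) and 0.07 for number 3 (27 higher, 17 lower). Of the 44 members 10 (22.7%) were higher in IVD in all 3 pairs, against 17.6% of all genes, and 0 were lower in all 3, against 17.5%. When 1 array was left out, the median difference of the tissues ran between 0.07 and 0.15 without control IVD 1, control IVD 2, control vertebrae 2 or control vertebrae 3, and was 0.53 without control IVD 3 and 0.59 without control vertebrae 1. Without both control arrays numbered 1 it was 0.41, with 41 of 44 genes higher. Mitosis genes as a group had a median of 0.67 in pair 2 but of -0.15 in pair 1 and 0.00 in pair 3. Replication genes had medians of -0.06, 0.75 and 0.23 in pairs 1, 2 and 3, with 6, 15 and 12 of 15 higher in IVD. Over all control arrays 13 of 15 replication genes (median 0.34) and 22 of 24 mitosis genes (median 0.18) had higher means in IVD.

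With the array number as a random block in the control arrays, limma called 0.363% of all genes and 0 members, and 3 members were higher at an unadjusted p under 0.05, against 7.14% of all genes. These were Ccne2, Ccnd2 and Gins2. Ccne2 read 1.27, 1.38 and 0.15 in IVD and 0.84, -0.09 and -1.30 in vertebrae, higher in IVD in each pair, and differed by 1.11 (SE 0.34, limma adjusted p = 0.265 in that fit, and SE 0.90 without the block). Ccnd2 differed by 0.54 (SE 0.35 without the block) and Gins2, a part of the fork helicase, by 0.34 (SE 0.24), with 0.57, 0.16 and 0.16 in IVD and 0.27, -0.33 and -0.07 in vertebrae. Cdc20, the activator of the anaphase promoting complex, differed by 0.43 (SE 0.34), Mcm2 by 0.61 (SE 0.66), Pcna by 0.59 (SE 0.67), Cdk1 by 0.55 (SE 0.53), Top2a by 0.23 (SE 0.20), Ccnd1 by 0.13 (SE 0.42), Mki67 by 0.09 (SE 0.53) and E2f1 by -0.08 (SE 0.17).

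Genes that restrain the cycle were also measured in the controls. Gas1, a growth arrest gene, read 0.51, 1.29 and 0.43 in control IVD and -0.58, -0.64 and -0.69 in control vertebrae. All IVD arrays lay above all vertebrae arrays, and the difference of 1.38 (SE 0.45, limma adjusted p = 0.99997) was called only with the random block on the control arrays (SE 0.18, limma adjusted p = 0.0456). With the array number as fixed terms over the 13 arrays limma called 0 genes in this comparison. That fit also tied mutant arrays of the same number, which were not taken as pairs. Cdkn1a, the inhibitor p21, read 0.26, 0.96 and 0.33 in IVD and -0.42, -0.22 and -0.24 in vertebrae, a difference of 0.81 (SE 0.28, limma adjusted p = 0.99997). The other 6 CDK inhibitors differed by -0.18 to 0.13, and Gas1, Btg2 and Gas2 were the 3 of 10 quiescence genes with an unadjusted p under 0.05, all higher in IVD, against 1.61% of all genes higher at that p.

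The vertebrae of mutant and control embryos were compared in the same way. Means were lower in mutant vertebrae for 43 of 44 genes, with a median of -0.70, against 43.9% of all genes lower and a median of 0.03. Limma had 0 members with an adjusted p under 0.05 (0% of all genes), and 10 members lower at an unadjusted p under 0.05, against 1.03% of all genes, each with an adjusted p of 0.999. Those 10 were all mitosis genes. The unequal variance test had 1 member at that p, against 261 of all genes in either direction. In 9 members every mutant array lay below every control array, as in 2.07% of all genes. Of the members' 107 probe sets 87 were lower and 20 higher, and 10 of the 33 members with several had both signs. Means were also lower in mutant vertebrae for 14 of 14 neuronal markers (median -1.13), 10 of 10 liver genes (median -1.87) and 10 of 11 erythroid markers (median -1.19). They were lower too for 8 of 8 IVD and sclerotome markers (median -0.59), and higher for 10 of 10 cartilage markers (median 0.32). The part of all these markers in the members' difference was not tested.

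Cenpe, a kinetochore motor, read 1.17, 0.76 and -0.23 in control vertebrae and -1.65, -0.41 and -0.06 in mutant vertebrae, a difference of -1.27 (SE 0.48). Ube2c, the ubiquitin-conjugating enzyme of the anaphase promoting complex, read 2.33, -0.48 and 0.07 in control and -1.66, -1.37 and -0.18 in mutant, a difference of -1.71 (SE 0.69). Bub1, a checkpoint kinase, read 1.15, -0.09 and 0.07 in control and -0.98, -0.41 and -0.35 in mutant, a difference of -0.96 (SE 0.39). Bub1 alone of these 3 had groups that lay apart. Tpx2 differed by -0.53 (SE 0.20). Among replication genes all 15 had lower means (median -0.61), with Pcna at -1.46 (SE 0.67) and Mcm2 at -0.73 (SE 0.66). Cdk1 differed by -1.16 (SE 0.53), Mki67 by -0.97 (SE 0.53), Top2a by -0.40 (SE 0.20), Ccnd1 by -0.72 (SE 0.42) and E2f1 by -0.17 (SE 0.17), and Ccnd2 alone had a higher mean, by 0.32 (SE 0.35).

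The size of this difference rested largely on 2 arrays. Control vertebrae 1, one of the arrays with liver transcripts, and mutant vertebrae 1, the array with the widest spread, were the highest and the lowest of the 13 for the members. Without the former the median was -0.30 with 43 of 44 genes lower, and without the latter -0.40 with 42 lower. Without both it was -0.22 with 31 genes lower and 13 higher, as chosen after the values were seen. In none of these 3 settings did a member have an unadjusted p under 0.05 in limma, against 321, 598 and 794 of all genes in either direction. Without control vertebrae 3 the median was -0.85 and without mutant vertebrae 3 it was -0.86, each with 16 members lower at that p, against 494 and 706 of all genes in either direction. Mcm2 had a higher mean in mutant vertebrae once control vertebrae 1 and mutant vertebrae 1 were both left out, by 0.63.

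**Figure D4:**
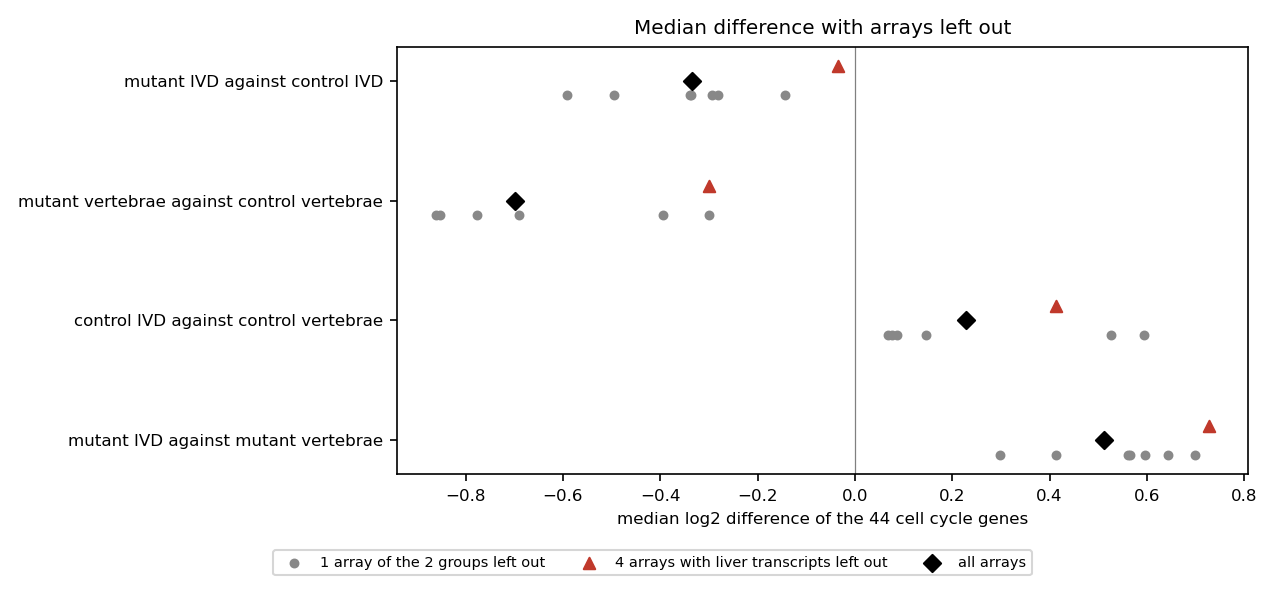
The horizontal axis is the median log2 difference of the 44 genes in each comparison, with all arrays (diamond), with 1 array of the groups compared left out (grey points) and without the 4 arrays with liver transcripts (red triangle). All medians kept their sign in the settings drawn, while that of mutant against control IVD ran from -0.59 to -0.04 and that of mutant against control vertebrae from -0.86 to -0.30.

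Between the mutant tissues the gene means of all members shared a direction. Means were higher in mutant IVD than in mutant vertebrae for all 44 genes, with a median of 0.51, against 50.1% of all genes higher and a median of 0.00. Limma had 0 members with an adjusted p under 0.05, against 0.0275% of all genes, and 3 members higher at an unadjusted p under 0.05, against 4.83% of all genes. In 13 members every mutant IVD array lay above every mutant vertebrae array, as in 4.08% of all genes. Of the members' 107 probe sets 91 were higher and 16 lower, and 14 of the 33 members with several had both signs. Of the marker lists, 14 of 14 neuronal markers (median 1.07), 10 of 10 liver genes (median 1.38), 9 of 11 erythroid markers (median 0.64) and 12 of 12 endothelial markers (median 0.25) also had higher means in mutant IVD. So had 8 of 8 IVD and sclerotome markers (median 1.41), whereas 10 of 10 cartilage markers had lower means (median -1.02). The part of all these markers was not tested. These comparisons share arrays with those above, and their values are side by side and not independent of them.

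Gins2 had the smallest p. It read 0.54, 0.55, -0.01 and -0.11 in mutant IVD and -0.65, -0.66 and -0.17 in mutant vertebrae, a difference of 0.74 (SE 0.22, limma adjusted p = 0.334, and between 0.138 and 0.968 in the alternatives run). All IVD arrays lay above all vertebrae arrays. Top2a, which untangles DNA before division, read 0.31, 0.13, -0.05 and 0.17 in mutant IVD and -0.54, -0.33 and -0.15 in mutant vertebrae, a difference of 0.48 (SE 0.19, limma adjusted p = 0.504). Nusap1, a spindle protein, read 0.53, 0.02, -0.06 and 0.37 and -0.99, -0.39 and -0.06, a difference of 0.70 (SE 0.28, limma adjusted p = 0.526). Ube2c differed by 1.37 (SE 0.65), Pcna by 1.25 (SE 0.63), Cdk1 by 0.89 (SE 0.49), Ccnd1 by 0.85 (SE 0.40), Mcm2 by 0.83 (SE 0.62), Ccnd2 by 0.55 (SE 0.33), Mki67 by 0.44 (SE 0.49) and E2f1 by 0.17 (SE 0.15).

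The median stayed above 0 when arrays were left out. It was 0.30 with 40 of 44 genes higher without mutant vertebrae 1, and 0.73 with 44 higher without mutant IVD 3 and 4 and the control arrays with liver transcripts. Without mutant vertebrae 1 and both of those mutant IVD arrays it was 0.50 with 44 higher, from 2 arrays in each group, an alternative chosen after the values were seen. Limma had 1 member at an unadjusted p under 0.05 without mutant vertebrae 1, 12 without the 4 arrays with liver transcripts and 13 without both control arrays numbered 1. Over all genes it had 1400, 1437 and 1539 at that p, in either direction. With array weights the median was 0.30 with 39 higher and 5 lower, and quantile normalisation left 43 higher. Of the other lists 28 of 34 origin and polymerase genes, 23 of 26 condensin, cohesin and kinetochore genes and 19 of 20 spindle genes had higher means in mutant IVD, and so had 9 of 10 quiescence genes, of which Ccng2 had the smallest p, with a difference of 0.67 (SE 0.19, limma adjusted p = 0.322).

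**Figure D5:**
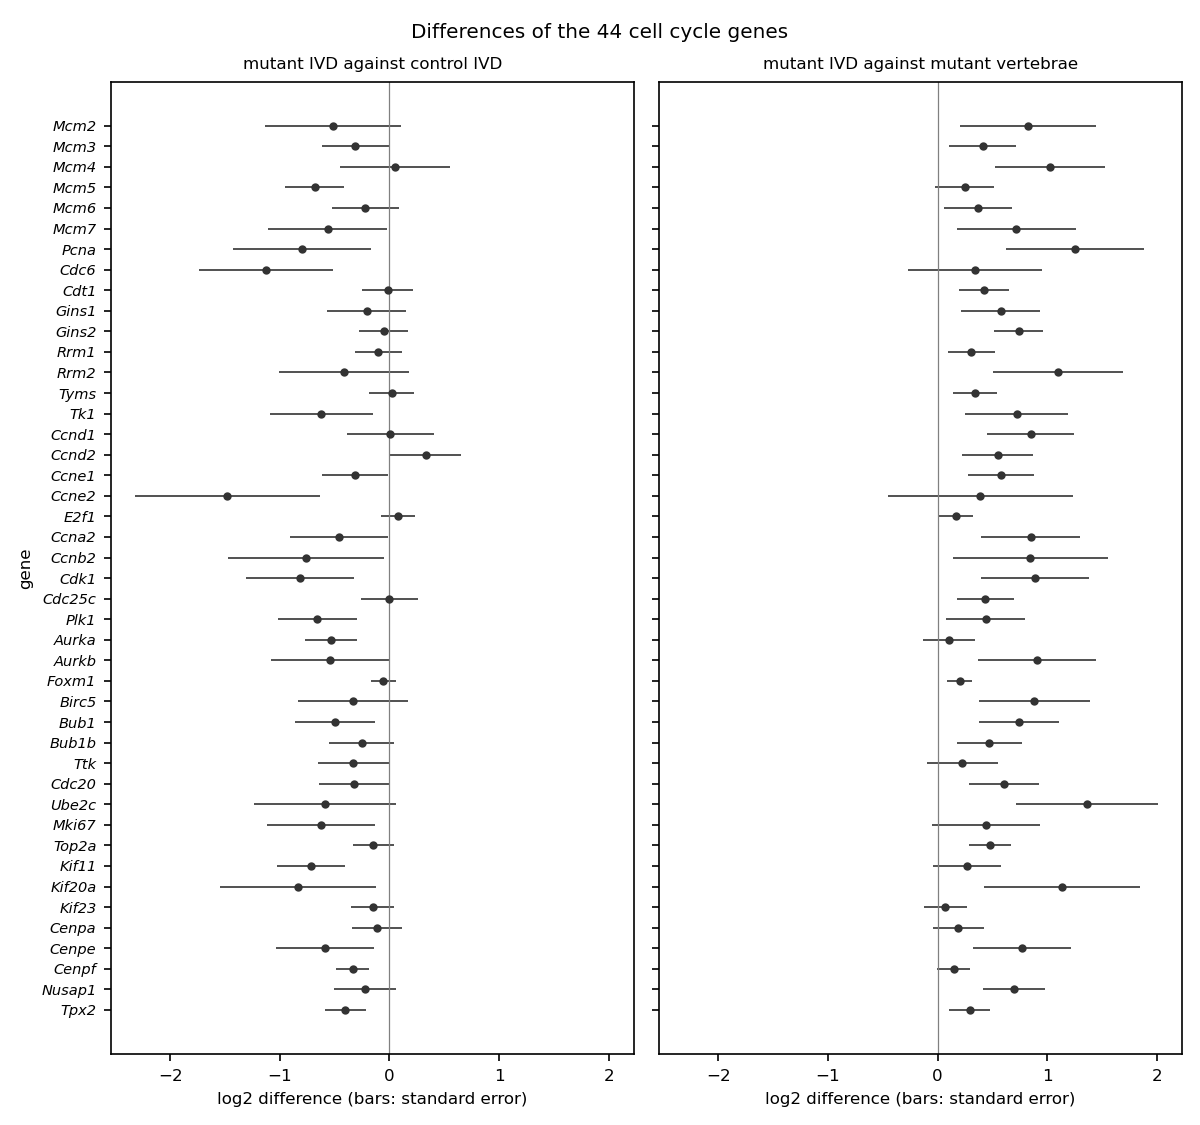
Points are the log2 differences of the 44 genes, ordered by role, in mutant against control IVD (left) and mutant IVD against mutant vertebrae (right), and bars are standard errors from limma. On the left 38 points lie below 0 and on the right all 44 lie above it, and many bars on either side reach 0.

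Whether the deletion acted differently in the tissues was asked with the interaction, the difference of mutant from control in IVD minus that in vertebrae. It was above 0 for 41 of 44 genes with a median of 0.29, against a median of 0.00 over all genes. Of the members' 107 probe sets 81 lay above 0 and 26 below, and 17 of the 33 members with several had both signs. Limma had 0 members with an adjusted p under 0.05 (0% of all genes) and 0 at an unadjusted p under 0.05, against 0.841% of all genes above 0 at that p. The interaction was also above 0 for 14 of 14 neuronal markers (median 1.94), 9 of 10 liver genes (median 1.62), 11 of 11 erythroid markers (median 1.15) and 12 of 12 endothelial markers (median 0.44), and their part in the members' values was not tested. Ube2c had the highest value, 1.12 (SE 0.95), and the 3 genes below 0 were Ccne2 at -0.72 (SE 1.24), Cdc6 at -0.24 (SE 0.89) and Mcm5 at -0.10 (SE 0.39). The genes named by rule included Ccnd1 at 0.72 (SE 0.58), Pcna at 0.66 (SE 0.92), Nusap1 at 0.51 (SE 0.42) and Gins2 at 0.40 (SE 0.33). They also included Mki67 at 0.35 (SE 0.72), Cdk1 at 0.34 (SE 0.72), Top2a at 0.25 (SE 0.27) and E2f1 at 0.24 (SE 0.23). Of these genes too, Mcm2 stood at 0.21 (SE 0.91) and Ccnd2 at 0.01 (SE 0.48). Gins1, named after its value was seen, stood at 0.62 (SE 0.53). Without control vertebrae 1 the median was 0.01 and with array weights it was -0.06. It was 0.06 without control IVD 3, 0.14 without mutant vertebrae 1, 0.18 without mutant IVD 1 and 0.49 without control vertebrae 3.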

How the data were processed

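The authors subtracted background and normalised the arrays by RMA at GeneSpring defaults, after amplification of 50 ng total RNA in 2 cycles. The deposited log2 values had a median of 0 over the 13 arrays for every probe set, so signal over background is unknown, dim probes could not be filtered, and precision is set by how many arrays each group had. After 64 control probe sets were left out, 45037 remained, of which 34945 carried 1 symbol in GEO's platform annotation, 932 several and 9160 none. Probe sets with 1 symbol were averaged by gene, to 18193 genes.

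The 4 groups were fitted in 1 model over all arrays with limma 3.58.1 (lmFit, eBayes) in R 4.3.3, with two-sided tests, Benjamini-Hochberg adjustment over all genes and a threshold of 0.05. Tables and figures were made with Python 3.11.15. The model was tested on simulated data. No set test was run, and lists are described by counts and medians.

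The members and lists were chosen with earlier results of these data known. Named with full statistics were Mki67, Top2a, Pcna, Mcm2, Cdk1, Ccnb1 (not measured), Ccnd1, Ccnd2 and E2f1, the 8 members with the smallest p in mutant against control IVD and the 4 with the smallest p elsewhere, all CDK inhibitors, 2 genes of each other list by p in mutant against control IVD, and Tgfbr2. Others were named after their values were seen.

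Marker lists of other cell types (liver, erythroid, neurons, neural progenitors, muscle, endothelium, leukocytes, notochord) and of IVD and cartilage were averaged by array. Deviations from group means correlated with r = 0.83, 0.61 and 0.61 between control IVD and vertebrae arrays of the same number, which the design text says came from the same mice without naming which, and these were taken as pairs. Between mutant arrays of the same number r was -0.45, 0.25 and -0.20, and those were not. Alternatives were array blocks, the compared groups alone, quantile normalisation, other rules from probe sets to genes, array weights, an unequal variance test and leaving out arrays.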

Additional observations from a re-analysis of the deposited data

How the results depend on the processing

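No member passed the threshold under any alternative run, and the median differences of the members kept their direction in the 4 comparisons of groups under all of them. Signal over background is unknown, and 3 or 4 arrays a group limit every value. Where a value changed with a setting, the cause was not tested. In mutant against control IVD the median of the replication genes was 0.061 without the 4 arrays with liver transcripts. In mutant against control vertebrae the median without mutant vertebrae 1 and control vertebrae 1 was -0.22 for all members and -0.26 for mitosis genes, an alternative chosen after seeing the data. The interaction changed sign with array weights, to -0.064 for all members, -0.071 for replication and -0.077 for mitosis genes, and to -0.024 for replication genes without both control arrays numbered 1 and mutant vertebrae 1, also chosen after seeing the data. When each array was left out in turn, the interaction of the replication genes ran from -0.10 to 0.49.

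With a block for array number in the fit of all groups, as fixed terms, the median of the members was -0.34 in mutant against control IVD, 0.23 in control IVD against vertebrae, -0.70 in mutant against control vertebrae, 0.57 in mutant IVD against mutant vertebrae and 0.26 in the interaction, and no call of a member changed. That fixed block also tied mutant arrays of the same number, which were not taken as pairs. Mutant IVD 4 stood alone in its block, so these medians are those without that array. The random block of the control pairs, with a consensus correlation of 0.581, changed no call of a member either.

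Single genes changed sign as follows. In mutant against control IVD, Mcm2 differed by 0.34 and Cdkn2b by -0.042 without the 4 arrays with liver transcripts, Ccnd1 by -0.048 with quantile normalisation, -0.30 with array weights and -0.12 without both control arrays numbered 1, and Cdkn2a by 0.024 with array weights. With the median of probe sets E2f1 differed by 0.037 between control tissues, 0.026 between mutant and control vertebrae and -0.011 in the interaction. In mutant against control vertebrae Mcm2 differed by 0.035 with array weights and 0.63 without mutant vertebrae 1 and control vertebrae 1. In the interaction array weights gave -0.17 for Mki67, -0.057 for Top2a, -0.63 for Mcm2, -0.47 for Cdk1, -0.033 for Ccnd1, -0.34 for Ccnd2 and -0.0052 for Nusap1. There quantile normalisation gave -0.11 for Mcm2 and -0.12 for Ccnd2, leaving out both control arrays numbered 1 gave -0.078 and -0.19, and leaving out mutant vertebrae 1 as well gave -0.77, -0.44 and, for Cdk1, -0.32.

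When each array was left out in turn, mutant against control IVD ran from -0.31 to 0.068 for Top2a, -0.22 to 0.35 for Ccnd1, -0.093 to 0.082 for Cdkn2a, -0.17 to 0.29 for Cdkn2c and -0.014 to 0.19 for Tgfbr2. Control IVD against control vertebrae ran from -0.37 to 0.66 for Mki67, -0.066 to 1.36 for Pcna and -0.21 to 0.34 for Ccnd1. The interaction ran from -0.22 to 0.81 for Mki67, -0.10 to 1.32 for Pcna, -0.48 to 0.63 for Mcm2, -0.16 to 0.66 for Cdk1 and -0.24 to 0.29 for Ccnd2.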
